A study of Mus musculus with 16 samples.

Results

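Kupffer cells are the macrophages that live in the sinusoids of the liver. This report describes 10 genes used to recognise the resident Kupffer cell, Clec4f, Vsig4, Timd4, Cd5l, Marco, Cd163, Adgre1 (named Emr1 on the array), Folr2, Csf1r and Spic, in mouse liver injured with CCl4 in the presence or absence of Lcn2. They were chosen by gene symbol, and all 10 were measured, among 24357 genes tested. Total RNA from whole liver of male BALB/c mice, aged 6 to 8 weeks when treatment began, was hybridised to 16 Agilent 1-colour arrays. WT mice and Lcn2-/- mice, which lack the secreted protein lipocalin 2 in every cell and come from a mixed strain later crossed back to BALB/c, received either CCl4 or corn oil. CCl4, a solvent that hepatocytes turn into a toxic radical, was given by intraperitoneal injection in corn oil at 0.5 ml/kg, 2 times a week for 4 weeks, and tissue was collected 48 h after the final injection. Controls comprised 4 WT and 3 Lcn2-/- arrays, and CCl4-treated liver comprised 5 WT and 4 Lcn2-/- arrays. Nothing in the labels states that replicates are separate animals, so p-values measure only the spread between these arrays.

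In the undamaged liver most Kupffer cells descend from precursors that settled before birth and renew themselves in place. They clear bacteria, aged red cells and dying cells from the blood, and signals from the surrounding endothelial and stellate cells keep their gene programme running. When they are lost, monocytes from the blood can enter the niche and acquire that programme, with receptors such as Timd4 returning late. Among the 10 genes, Clec4f encodes a lectin that in mice is nearly restricted to Kupffer cells. Timd4 encodes a receptor for phosphatidylserine on dying cells, Vsig4 a receptor for complement C3 fragments, and Cd163 the receptor for haptoglobin-haemoglobin complexes. Marco is a scavenger receptor, Cd5l a secreted scavenger protein and Folr2 a folate receptor. Adgre1 (F4/80) and Csf1r, the receptor for Csf1 and Il34, are shared by macrophages of many tissues. Spic is a transcription factor of iron-recycling macrophages.

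RefSeq windows of 250 bases ending at the start of the gene (GRCm38.p6) were used for 8 of the 10 genes. The windows numbered 9 because Folr2 has 2. They were searched on both strands for GAGGAA, the core of the site read by the macrophage factor PU.1 (Spi1), and for TGCTGA, the core of the element read by Maf factors. GAGGAA or its reverse complement TTCCTC lay in 3 of the 9 windows, those of Vsig4, Cd5l and Marco, against 23.3% of 32851 windows of this length. TGCTGA or its reverse complement TCAGCA lay in 6 of the 9, those of Clec4f, Timd4, Cd5l, Spic and both of Folr2, against 16.1%. No GAGGAA match overlapped a TGCTGA match. Adgre1 and Csf1r were left out of the search, so these counts do not cover them. A match describes letters and is not evidence of a bound site. The windows of the 4 genes whose signal did not overlap between WT CCl4 and WT control are shown 5′ to 3′ with the matches in capitals, for Clec4f (chr6:83656117-83656366, minus strand), Timd4 (chr11:46810549-46810798, plus strand), Vsig4 (chrX:96293439-96293688, minus strand) and Cd163 (chr6:124304401-124304650, plus strand). Clec4f and Timd4 carry the Maf element, Vsig4 carries the PU.1 core at 2 places, and Cd163 carries neither.
Clec4f: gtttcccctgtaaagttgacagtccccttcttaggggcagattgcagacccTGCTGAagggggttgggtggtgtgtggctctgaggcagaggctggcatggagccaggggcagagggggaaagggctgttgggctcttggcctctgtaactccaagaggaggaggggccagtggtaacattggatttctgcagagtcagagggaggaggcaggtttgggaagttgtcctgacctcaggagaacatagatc
Timd4: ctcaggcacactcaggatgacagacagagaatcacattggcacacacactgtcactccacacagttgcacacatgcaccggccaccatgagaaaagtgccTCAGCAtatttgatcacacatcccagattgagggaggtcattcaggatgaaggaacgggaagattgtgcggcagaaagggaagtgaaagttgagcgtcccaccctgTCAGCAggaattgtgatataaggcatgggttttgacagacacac
Vsig4: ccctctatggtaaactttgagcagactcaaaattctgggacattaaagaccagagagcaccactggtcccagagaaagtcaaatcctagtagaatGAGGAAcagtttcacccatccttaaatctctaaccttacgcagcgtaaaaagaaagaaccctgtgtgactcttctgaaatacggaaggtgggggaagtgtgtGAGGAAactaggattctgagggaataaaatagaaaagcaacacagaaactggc
Cd163: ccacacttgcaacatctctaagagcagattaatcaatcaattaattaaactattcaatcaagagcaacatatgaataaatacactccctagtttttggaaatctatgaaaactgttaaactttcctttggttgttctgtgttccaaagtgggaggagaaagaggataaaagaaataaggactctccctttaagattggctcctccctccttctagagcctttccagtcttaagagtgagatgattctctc

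Values are log2 of the quantile-normalized processed signal, in which 1 unit is a doubling, and they are not compared between genes because each probe has its own brightness. A gene was called where the limma p adjusted over all genes was under 0.05. Lcn2 lay lower on every Lcn2-/- array, between 10.46 and 12.25, than on every WT array, between 13.80 and 17.57. Between 51.6% and 60.9% of gene spots were well above background on an array. The probe of Cd163 was well above background on 6 of 16 arrays, namely all 4 WT controls, 1 Lcn2-/- control and 1 WT array given CCl4, with 0 of the Lcn2-/- arrays given CCl4, so it entered the test through the group in which it is brightest. The probes of the other genes were well above background on all 16. The arrays lay on 2 slides. Slide 1 held the 7 control arrays and WT CCl4 replicate 1, and slide 2 held the other CCl4 arrays. Within each slide genotype followed the upper or lower tier, with WT CCl4 replicate 1 again the exception.

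The control arrays numbered 3 stood apart from the other controls for these genes in both genotypes. WT control 3 was the highest WT control for 9 of the 10 genes, Cd163 being the exception, and Lcn2-/- control 3 was the highest Lcn2-/- control for all 10. Over all 24357 genes tested, 5281 were highest on WT control 3 and 7785 on Lcn2-/- control 3. In both genotypes at once, 14.1% were highest on control array 3. The median excess over the mean of the other controls was 1.19 in WT and 1.68 in Lcn2-/- on the log2 scale, against -0.09 and -0.06 over all genes. Marco had the widest gap. It read 15.38 on WT control 3 and 9.18 to 12.26 on the other WT controls, and 14.74 on Lcn2-/- control 3 against 9.79 and 10.34 on the other Lcn2-/- controls. The excess was 4.06-fold and 4.26-fold for Adgre1, 2.98-fold and 3.23-fold for Cd5l, and 1.35-fold and 2.08-fold for Clec4f, in WT and Lcn2-/- respectively. Both arrays lay in the same column of slide 1, the upper one WT and the lower one Lcn2-/-.

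**Figure D1:**
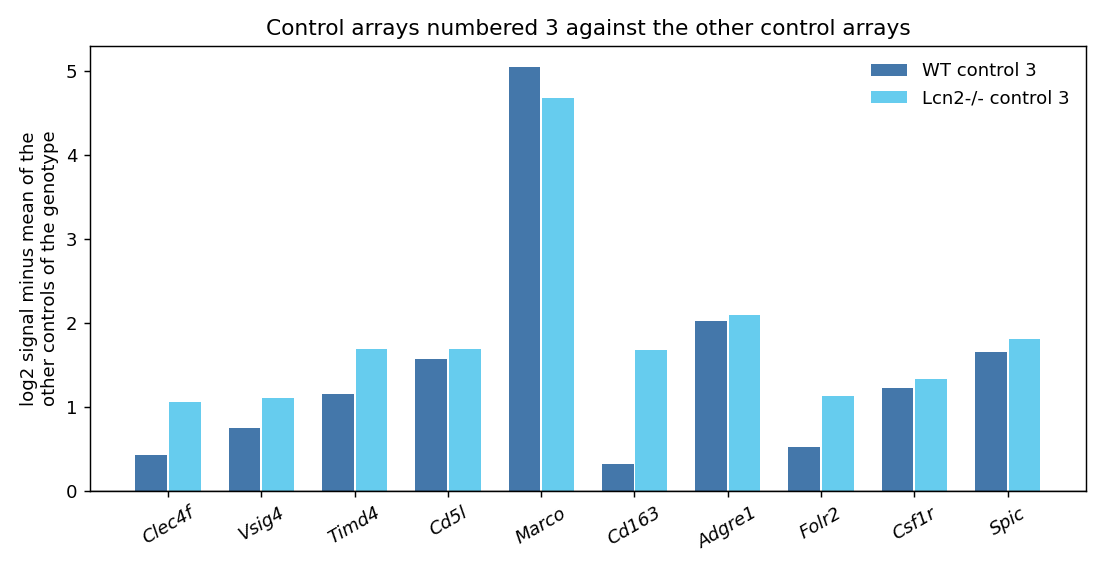
Log2 signal of each identity gene on the control array numbered 3, minus the mean of the other control arrays of the same genotype (3 for WT, 2 for Lcn2-/-). All bars lie above 0, from 0.32 for Cd163 in WT to 5.04 for Marco in WT.

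Markers of other leukocytes stood higher on the same 2 arrays, while hepatocyte markers did not. All 14 pan-macrophage genes were highest on control array 3 in both genotypes, by a median of 1.90 in WT and 1.81 in Lcn2-/-. Their mean log2 signal was 13.48 on WT control 3 and 11.39 to 12.06 on the other WT controls, and 12.99 on Lcn2-/- control 3 against 11.30 and 11.38. The counts per genotype that follow stand beside 5281 and 7785 of all 24357 genes. Of 7 neutrophil genes, 5 were highest on WT control 3 and 7 on Lcn2-/- control 3, with medians of 2.42 and 3.09. Of 7 monocyte genes the counts were 6 and 5, with medians of 2.94 and 2.73. The median over 6 hepatocyte genes was -0.04 in WT and -0.01 in Lcn2-/-, and over 7 sinusoidal endothelial genes it was 0.06 and 0.01. The part of these cells, of the slide column and of the animals in the pattern was not tested. Differences from the controls are therefore also given without both arrays, a choice made after seeing the data, and where only 1 value stands it covers all arrays. Because the arrays were picked for reading high in these genes, leaving them out raises CCl4 minus control and narrows the spread by construction, so values, p-values and calls without them are a description and not a test.

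The first comparison asked how repeated CCl4 changed the identity genes in WT liver. Clec4f, Timd4 and Cd163 fell, which is 3 of the 10 genes, against 16.7% of all genes called in either direction. None of the 10 rose. Cd163 entered the test through the controls, where it is brighter, and 2 of the 9 genes well above background on every array were called. The median difference over the 10 genes was -0.66 on the log2 scale, against -0.03 over all genes, and it was -0.24 without both control arrays numbered 3. In 4 genes, Clec4f, Timd4, Cd163 and Vsig4, every WT CCl4 array lay below every WT control array, against 17.4% of all genes whose groups did not overlap in either direction. In bulk liver RNA, fewer Kupffer cells and less RNA per Kupffer cell cannot be told apart.

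**Figure D2:**
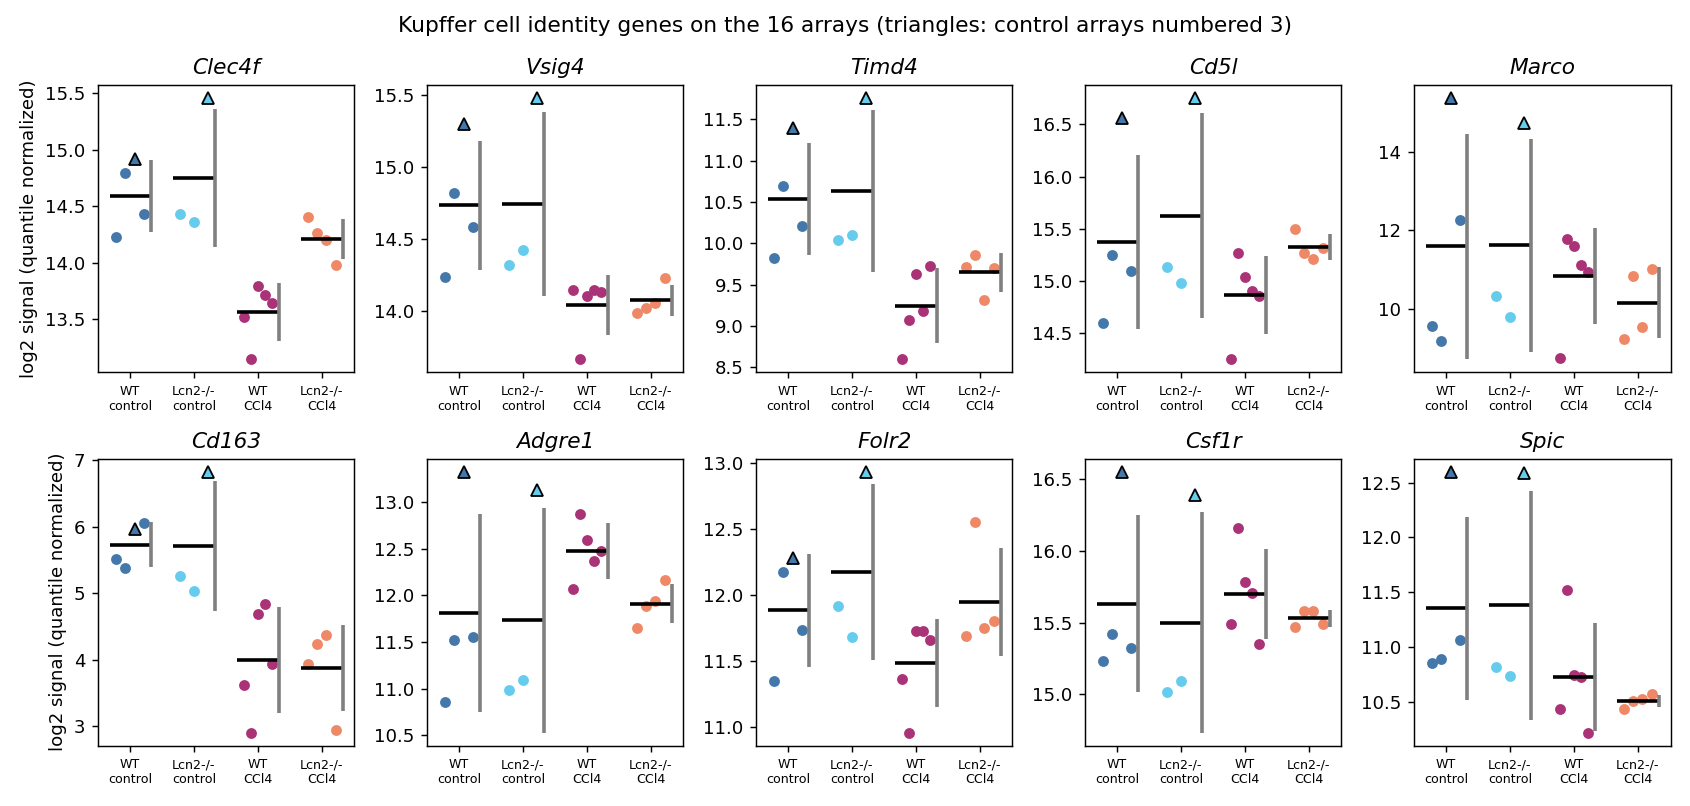
Log2 quantile-normalized signal of the 10 identity genes on each of the 16 arrays, by group, on an axis of its own for each gene. Points are arrays, triangles are the control arrays numbered 3, horizontal lines are group means and grey bars are ± 1 SD. The Clec4f values of WT CCl4 lie below those of the other 3 groups, and the triangles top most control groups.

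Clec4f (probe at chr6:83595281-83595339, mm9) gave the smallest adjusted p. It read 14.23, 14.79, 14.92 and 14.43 on the WT control arrays and 13.52, 13.15, 13.80, 13.71 and 13.64 on the WT CCl4 arrays. The lowest control array, replicate 1, was brighter than the highest CCl4 array, replicate 3. The difference was -1.03 (SE 0.22, adjusted p = 0.00543), a 2.04-fold lower signal. On slide 1 alone, WT CCl4 replicate 1 against the 4 WT controls gave -1.08 with an adjusted p of 0.232. That fit has 1 CCl4 array, which is assumed to vary as the controls do, and the same holds for every value given for slide 1 alone. That array lay within the range of the WT CCl4 arrays of slide 2. The call held when any single array was left out, with adjusted p between 0.00079 and 0.0232. Without both control arrays numbered 3 the difference was -0.92 (adjusted p = 0.00186).

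Timd4 (chr11:46657173-46657232) read 9.83, 10.69, 11.40 and 10.21 in WT control and 8.60, 9.08, 9.63, 9.19 and 9.73 in WT CCl4. The groups did not overlap, but the nearest values, 9.83 and 9.73, were close. The difference was -1.29 (SE 0.37, adjusted p = 0.0297), a 2.44-fold lower signal. The call was lost on leaving out WT control 2, WT control 3, or WT CCl4 1, 2 or 4, with adjusted p between 0.0558 and 0.0832, and it was made without both control arrays numbered 3 (-0.998, adjusted p = 0.0142). On slide 1 alone the value was -1.93 with an adjusted p of 0.217, and WT CCl4 replicate 1, at 8.60, lay below the WT CCl4 arrays of slide 2.

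Cd163 (chr6:124270436-124270495) was dim throughout. It read 5.51, 5.37, 5.97 and 6.06 in WT control and 3.62, 2.90, 4.69, 4.83 and 3.94 in WT CCl4. All control values were above all CCl4 values, and 1 of the 5 CCl4 arrays was well above background. The difference was -1.73 (SE 0.44, adjusted p = 0.0154), but with 4 of the 5 CCl4 arrays not well above background it is no measure of the size of the change, and no fold is given. It was -0.56 after normexp background correction (adjusted p = 0.0203) and -1.01 in the deposited log2 table (adjusted p = 0.0214). It was -1.65 (adjusted p = 0.0148) without both control arrays numbered 3, and -2.11 (adjusted p = 0.135) on slide 1 alone.

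Vsig4 (chrX:93442598-93442657) missed the threshold narrowly. It read 14.23, 14.81, 15.29 and 14.58 in WT control and 14.14, 13.66, 14.10, 14.14 and 14.13 in WT CCl4. The CCl4 arrays other than replicate 2 were close to each other and to WT control 1, but no value crossed. The difference was -0.69 (SE 0.24, adjusted p = 0.0586), and without both control arrays numbered 3 it was -0.51 and called (adjusted p = 0.0294). Vsig4 was also called on leaving out WT control 1 (adjusted p = 0.0379) or Lcn2-/- control 3 (adjusted p = 0.0176).

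Adgre1 (chr17:57622868-57622927), the general macrophage marker, was not lower under CCl4. It read 10.85, 11.52, 13.33 and 11.55 in WT control and 12.06, 12.88, 12.60, 12.37 and 12.47 in WT CCl4. Control array 3 lay above every CCl4 array and the other 3 controls below every one. Over all arrays the difference was 0.66 (SE 0.47, adjusted p = 0.368), and without both arrays it was 1.17 (SE 0.20, adjusted p = 0.00127). In the fit without both arrays 5 of the 10 genes were called, Clec4f, Timd4, Vsig4 and Cd163 lower and Adgre1 higher, against 22.3% of all genes. With WT control 3 alone left out Adgre1 was not called (adjusted p = 0.0512). In that fit 2 of the 10 genes were called, Clec4f and Cd163, beside 5074 of all 24357 genes. A second Adgre1 probe gave 0.60 over all arrays and also read highest on both control arrays numbered 3. On slide 1 alone the difference was 0.25 with an adjusted p of 0.912.

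The other 5 genes were not called in WT. Cd5l (chr3:87174823-87174882) ranged from 14.60 to 16.56 in WT control and from 14.25 to 15.27 in WT CCl4, a difference of -0.51 (95% interval -1.34 to 0.32) that was -0.12 without both control arrays numbered 3. Folr2 (chr7:108988771-108988830) ranged from 11.35 to 12.28 and from 10.96 to 11.73, a difference of -0.40 (-1.002 to 0.21) that was -0.27 without them. Spic (chr10:88138053-88138112) ranged from 10.86 to 12.60 and from 10.22 to 11.52, a difference of -0.62 (-1.51 to 0.26) that was -0.21 without them. In each of these genes the control and CCl4 arrays overlapped. Marco (part of its probe at chr1:122371115-122371134) read 9.56, 9.18, 15.38 and 12.26 in WT control and 8.74, 11.79, 11.60, 11.12 and 10.95 in WT CCl4. Its difference was -0.76, with an interval of -3.40 to 1.89, and it was 0.50 without both control arrays numbered 3. Of the 10 genes Marco had the widest interval.

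The probes of Csf1r did not give the same answer. The probe with the highest mean read 15.23, 15.42, 16.55 and 15.32 in WT control and 15.49, 16.16, 15.78, 15.71 and 15.35 in WT CCl4, a difference of 0.07 (adjusted p = 0.912) that was 0.37 without both control arrays numbered 3. A second probe gave 0.27 (adjusted p = 0.772). The third probe, at another position of the gene, fell by 0.89 (SE 0.20) with an adjusted p of 0.00866 over all probes tested, and in Lcn2-/- its difference was -0.68 (adjusted p = 0.0777). In WT control the third probe read 10.53, 10.59, 10.15 and 10.56, so control array 3 was its lowest WT control, while it was the highest for the other 2 probes. Which transcripts each probe reads was not analysed here.

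**Figure D3:**
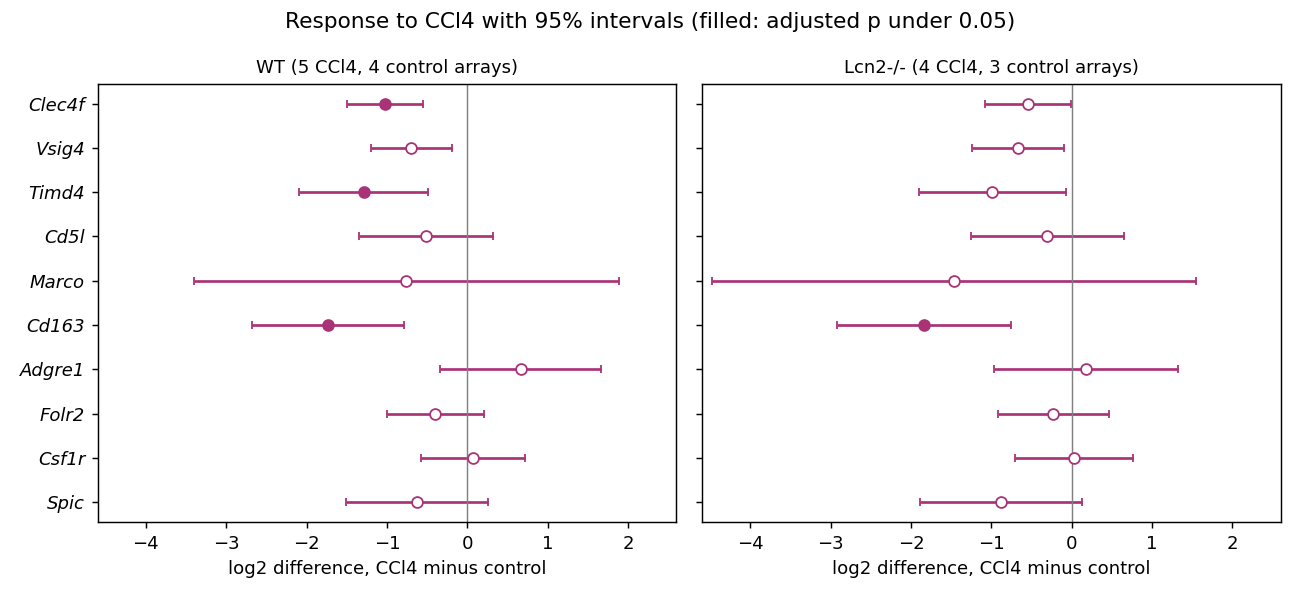
CCl4 minus control difference of the 10 identity genes in WT and in Lcn2-/- mice, on the log2 scale, with 95% intervals from limma. Filled points have an adjusted p under 0.05, which are Clec4f, Timd4 and Cd163 in WT and Cd163 in Lcn2-/-.

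The second comparison asked for the same response in Lcn2-/- mice. Of the 10 genes, Cd163 alone was called, lower, against 12.1% of all genes called. Cd163 entered the test mainly through the WT controls, and 0 of the 9 genes well above background on every array were called by limma. The median difference over the 10 genes was -0.60, against -0.02 over all genes. Without both control arrays numbered 3 the median was -0.048, with 5 differences below 0 and 5 above. The Lcn2-/- CCl4 arrays lay below every Lcn2-/- control array in 4 genes, Vsig4, Timd4, Cd163 and Spic, against 24.8% of all genes whose groups did not overlap. Cd163 read 5.26, 5.04 and 6.83 in Lcn2-/- control and 3.94, 4.24, 4.38 and 2.94 in Lcn2-/- CCl4. None of those CCl4 arrays was well above background, and of the 3 controls only replicate 3 was, so no fold is given. The fitted difference was -1.83 (adjusted p = 0.0285). It was -0.60 after normexp background correction and -1.05 in the deposited table. The Cd163 call was lost on leaving out Lcn2-/- control 3 (adjusted p = 0.111), Lcn2-/- CCl4 1 (0.053) or Lcn2-/- CCl4 4 (0.0703), and without both control arrays numbered 3 (-1.27, adjusted p = 0.117). Every Lcn2-/- control array lay on slide 1 and every Lcn2-/- CCl4 array on slide 2, so treatment and slide cannot be told apart within this genotype.

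Clec4f, Timd4 and Vsig4, which like Cd163 separated WT CCl4 from WT control, were not called in Lcn2-/- mice. The interaction called 0 of the 10 genes, against 0.0534% of all genes, so no difference from the WT response was shown. Clec4f read 14.43, 14.36 and 15.46 in Lcn2-/- control and 14.40, 14.26, 14.20 and 13.98 in Lcn2-/- CCl4. The highest CCl4 array lay between the 2 lower controls. The difference was -0.54 (SE 0.25, adjusted p = 0.183), and -0.19 without both control arrays numbered 3. Timd4 read 10.04, 10.10 and 11.76 against 9.71, 9.86, 9.32 and 9.70, a difference of -0.99 (adjusted p = 0.153) that was -0.42 without both arrays. Vsig4 read 14.32, 14.42 and 15.48 against 13.98, 14.02, 14.05 and 14.23, a difference of -0.67 (adjusted p = 0.124) that was -0.30 without both arrays. For Clec4f, Timd4 and Vsig4 these values moved by more than 1.5 times when the 2 arrays were left out.

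Adgre1 read 10.98, 11.09 and 13.13 in Lcn2-/- control and 11.65, 11.88, 11.94 and 12.16 in Lcn2-/- CCl4. As in WT, control array 3 was above all CCl4 arrays and the other controls below them. The difference was 0.18 (adjusted p = 0.869) over all arrays, and without both control arrays numbered 3 it was 0.87 (adjusted p = 0.0282). In the fit without both arrays it was the single called gene of the 10, against 15.1% of all genes. With Lcn2-/- control 3 alone left out Adgre1 was not called (adjusted p = 0.258). Cd5l (-0.30), Marco (-1.46), Folr2 (-0.23) and Spic (-0.87) were not called, nor was Csf1r (0.03), and without both arrays Cd5l was 0.26, Marco 0.093, Folr2 0.15 and Csf1r 0.47. Spic read 10.82, 10.74 and 12.59 against 10.43, 10.51, 10.52 and 10.57, so its groups were separate but by a small margin, and its difference was -0.27 without both arrays.

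**Figure D4:**
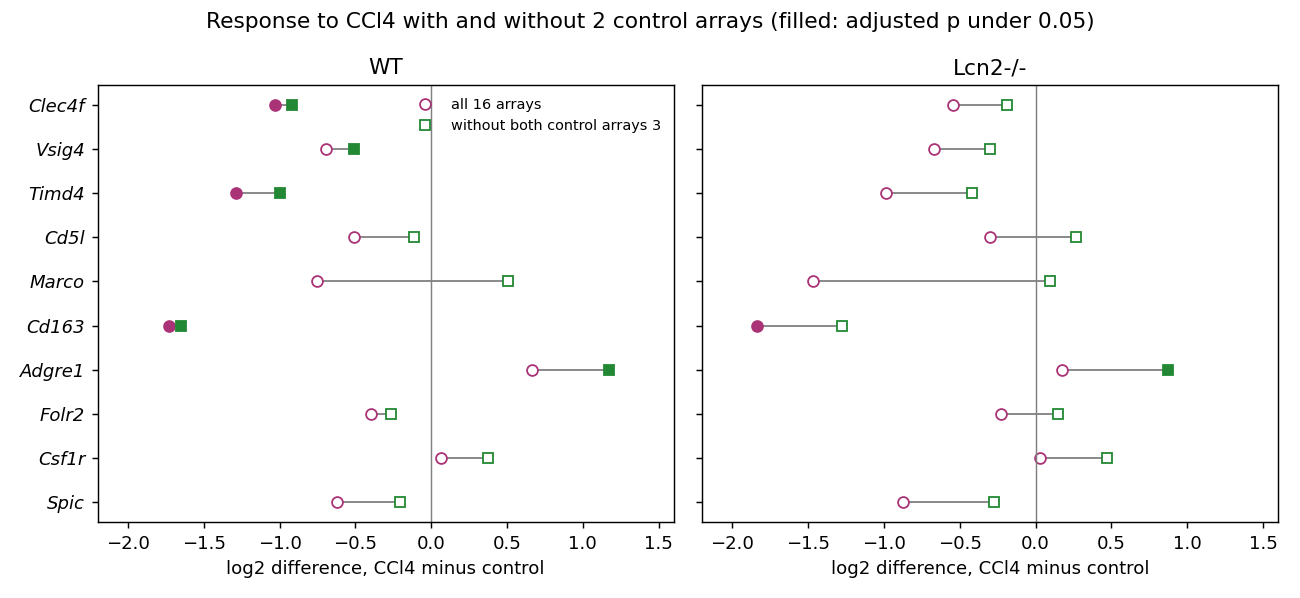
CCl4 minus control difference of the 10 identity genes (log2) over all 16 arrays (circles) and without WT control 3 and Lcn2-/- control 3 (squares), in WT and Lcn2-/- mice. Filled symbols have an adjusted p under 0.05. All squares lie to the right of their circles, and the called squares are Clec4f, Vsig4, Timd4, Cd163 and Adgre1 in WT and Adgre1 in Lcn2-/-.

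The third comparison set Lcn2-/- against WT liver under CCl4. The control arrays enter it only through the estimate of spread. By limma 0 of the 10 genes were called, against 0.649% of all genes, and 1 had an unadjusted p under 0.05. That gene was Clec4f. Every Lcn2-/- CCl4 array, from 13.98 to 14.40, lay above every WT CCl4 array, from 13.15 to 13.80, and it was the 1 gene of the 10 whose groups did not overlap, against 5.67% of all genes. The difference was 0.64 (SE 0.22, 95% interval 0.17 to 1.12, adjusted p = 0.233), a 1.56-fold higher signal. The value was 0.63 on slide 2 alone (adjusted p = 0.186). With tier as a term it was 0.69. That value sets the Lcn2-/- CCl4 arrays against WT CCl4 replicate 1 alone, the 1 WT array of the lower tier, so it is no separate check. Without both control arrays numbered 3 the adjusted p was 0.0777, with 0 of the 10 genes called by limma against 1.05% of all genes, and 3 genes, Clec4f, Adgre1 and Cd5l, had an unadjusted p under 0.05.

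For Clec4f the order of group means was WT CCl4 (13.56 ± 0.25, SD, n = 5), Lcn2-/- CCl4 (14.21 ± 0.18, n = 4), WT control (14.59 ± 0.32, n = 4) and Lcn2-/- control (14.75 ± 0.61, n = 3). The first 2 did not overlap but did not differ by the adjusted test, and each later neighbour overlapped the one before it. Adgre1 ran opposite under CCl4, with 11.65 to 12.16 in Lcn2-/- and 12.06 to 12.88 in WT, a difference of -0.57 (adjusted p = 0.624). Differences of the other 8 genes lay between -0.68 for Marco and 0.46 for Folr2, and in all 8 the groups overlapped. In the same comparison the median was -1.34 over the monocyte genes and -0.79 over the neutrophil genes. It was -0.46 over the pan-macrophage genes and -0.66 over the lipid-associated macrophage genes described below. Cx3cr1, a monocyte gene, was the only gene of these lists called under CCl4, and it was lower. Between genotypes in controls the medians were -1.79 (monocyte), 0.25 (neutrophil), -0.12 (pan-macrophage) and -0.60 (lipid-associated). Without both control arrays numbered 3 they were -1.93, -0.59, -0.28 and -0.44, in that order. The part of these cells in the values of Clec4f and Adgre1 was not tested.

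In controls, 0 of the 10 genes were called between genotypes by limma, against 0.517% of all genes, and 0 had an unadjusted p under 0.05. The groups overlapped for every one of the 10, against 9.73% of all genes whose groups did not. Differences ran from -0.13 for Csf1r to 0.29 for Folr2, smaller than the SD of that gene in either control group. Those SDs include control array 3. Over all arrays 7 differences were above 0, with a median of 0.029. Without both control arrays numbered 3, 8 were below 0 and 2 above, with a median of -0.17, and Csf1r was at -0.27. Of the 10 genes 0 were then called by limma, against 151 of all 24357. The interaction, which asks whether the response to CCl4 differed by genotype (Lcn2-/- minus WT), called 0 of the 10 genes by limma, against 0.0534% of all genes, with 0 at an unadjusted p under 0.05. For Clec4f it was 0.49 (SE 0.33, 95% interval -0.23 to 1.20, adjusted p = 1.00). That interval includes 0 and also values as large as the Lcn2-/- response itself, so a difference in response was neither shown nor bounded closely. With both control arrays numbered 3 left out the Clec4f value was 0.73, with an interval of 0.16 to 1.30, an unadjusted p of 0.0158 from limma and an adjusted p of 1.00.

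Other genes of the Kupffer cell programme were counted from a list of 16. In WT, 3 fell and 0 rose, with a median of -0.17 that turned to 0.047 without both control arrays numbered 3. In Lcn2-/- the median was -0.33 and turned to 0.059. A count of 3 of 16 in WT stands beside 16.7% of all genes called, and 2 of 16 in Lcn2-/- beside 12.1%, so neither share is far from the background. The counts of the lists that follow are to be read against the same shares, and those without both control arrays numbered 3 against 22.3% in WT and 15.1% in Lcn2-/-. C6, a complement component, fell by 1.77 (adjusted p = 0.00301). Fcna, a ficolin of the lectin complement pathway, fell by 1.03 (adjusted p = 6.85e-05), and Sucnr1, the succinate receptor, fell by 0.93 (adjusted p = 0.00777). In Lcn2-/- 2 of the 16 fell, Fcna by 0.91 and Sucnr1 by 1.06. Without both control arrays numbered 3 the counts were 3 lower and 1 higher in WT and 2 lower in Lcn2-/-. Clec1b, Slc40a1 (the iron exporter ferroportin) and Vcam1 were among those not called, at -0.12, -0.18 and 0.40 in WT.

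Of 13 transcription factors linked to Kupffer cells, 1 fell and 0 rose in WT, against 16.7% of all genes called, with a median of 0.13. The one that fell was Bach1, a haem-regulated repressor of Spic and Hmox1, by 0.49 (adjusted p = 0.0143). Nr1h3 (LXR alpha), a known activator of Cd5l, differed by 0.10, and Maf by 0.12, neither of them called. Spi1 had the largest difference of the list in both genotypes, and it too was not called. Its fitted difference was 1.14 in WT (adjusted p = 0.222) and 2.07 in Lcn2-/- (adjusted p = 0.0654). Spi1 was well above background on 3 of the 4 WT and 1 of the 3 Lcn2-/- control arrays, so these values do not measure the size of its change. In Lcn2-/- 0 of the 13 were called by limma, with 4 at an unadjusted p under 0.05. With both control arrays numbered 3 left out, 4 were called higher and 1 lower in WT and 4 higher in Lcn2-/-, against 22.3% and 15.1% of all genes. Of 9 ligands of the Kupffer cell niche, 2 rose in WT, the Notch ligand Dll1 by 1.25 (adjusted p = 0.000436) and Gdf2 (BMP9) by 0.62 (adjusted p = 0.00494), and Gdf2 rose in Lcn2-/- by 0.91. With both control arrays numbered 3 left out, 5 of the 9 were called higher and 1 lower in WT, and 3 higher in Lcn2-/-. Csf1 and Il34, the ligands of Csf1r, differed by 0.38 and 0.30 in WT and were not called. Of 10 ligands and partners of the identity genes, Mfge8, which like Timd4 binds phosphatidylserine, rose by 2.09 in WT (adjusted p = 4.21e-05) and by 1.73 in Lcn2-/-, while Bach1 was the 1 that fell in WT. The list's median was -0.01 in WT, or 0.0060 without both control arrays numbered 3. In WT 3 of these 10 were called higher and 1 lower once both control arrays numbered 3 were left out. Hp, the haptoglobin whose complexes Cd163 binds, differed by -0.03 in WT.

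Of 8 lipid-associated macrophage genes, 6 rose in WT, with a median difference of 2.77 over the list. Gpnmb rose by 7.10, Trem2 by 3.81 and Lgals3 by 2.97. Mmp12 rose by a fitted 6.19, but it was well above background on 2 of the 4 WT control arrays, so that value does not measure the size of its change. The mean log2 signal of the list ranged from 10.67 to 12.35 in WT control, 14.24 to 14.89 in WT CCl4, 10.08 to 10.68 in Lcn2-/- control and 13.29 to 14.78 in Lcn2-/- CCl4, where 6 of 8 also rose. The CCl4 arrays did not overlap the control arrays in either genotype. Gpnmb and Mmp12 were well above background on 0 of the 3 Lcn2-/- control arrays. Of 14 pan-macrophage genes, 3 rose in WT, Lyz2 by 2.46, Cd68 by 2.12 and Laptm5 by 1.43, and 2 in Lcn2-/-, near the 16.7% and 12.1% of all genes called. Without both control arrays numbered 3 the counts were 10 and 9, against 22.3% and 15.1% of all genes. Their median difference was 0.75 in WT and 0.61 in Lcn2-/- over all arrays, and 1.28 and 1.21 without both control arrays numbered 3. Their mean signal was 12.86 to 13.46 in WT CCl4 and 12.51 to 12.84 in Lcn2-/- CCl4.

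Of 7 monocyte genes, Itgax rose in WT, by 4.08 (adjusted p = 0.00176), and 2 genes rose in Lcn2-/-, Itgax and Cx3cr1. Their mean signal ranged from 9.13 to 11.43 in WT control, 10.701 to 11.90 in WT CCl4, 8.03 to 9.69 in Lcn2-/- control and 9.61 to 10.66 in Lcn2-/- CCl4. Without both control arrays numbered 3, 6 and 5 monocyte genes were called higher. Of 7 neutrophil genes, 4 rose in WT, Ngp, S100a8, S100a9 and Camp, and 0 were called in Lcn2-/- by limma, with 0 at an unadjusted p under 0.05. Ngp was well above background on 1 of the 4 WT controls. Without both arrays 5 were called higher in each genotype. Neutrophil signal ranged from 9.07 to 10.92 in WT control, 11.17 to 11.78 in WT CCl4, 8.89 to 12.25 in Lcn2-/- control and 10.62 to 11.34 in Lcn2-/- CCl4. The part of these cells in the values of the identity genes was not tested. Of 6 hepatocyte genes 0 were called in either genotype by limma, with 0 in WT and 0 in Lcn2-/- at an unadjusted p under 0.05. Of 7 sinusoidal endothelial genes Lyve1 rose by 1.52 and Stab2 fell by 0.43 in WT, and Lyve1 rose by 1.92 in Lcn2-/-. Hepatocyte signal was 18.60 to 18.70 in WT control and 18.51 to 18.72 in WT CCl4.

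**Figure D5:**
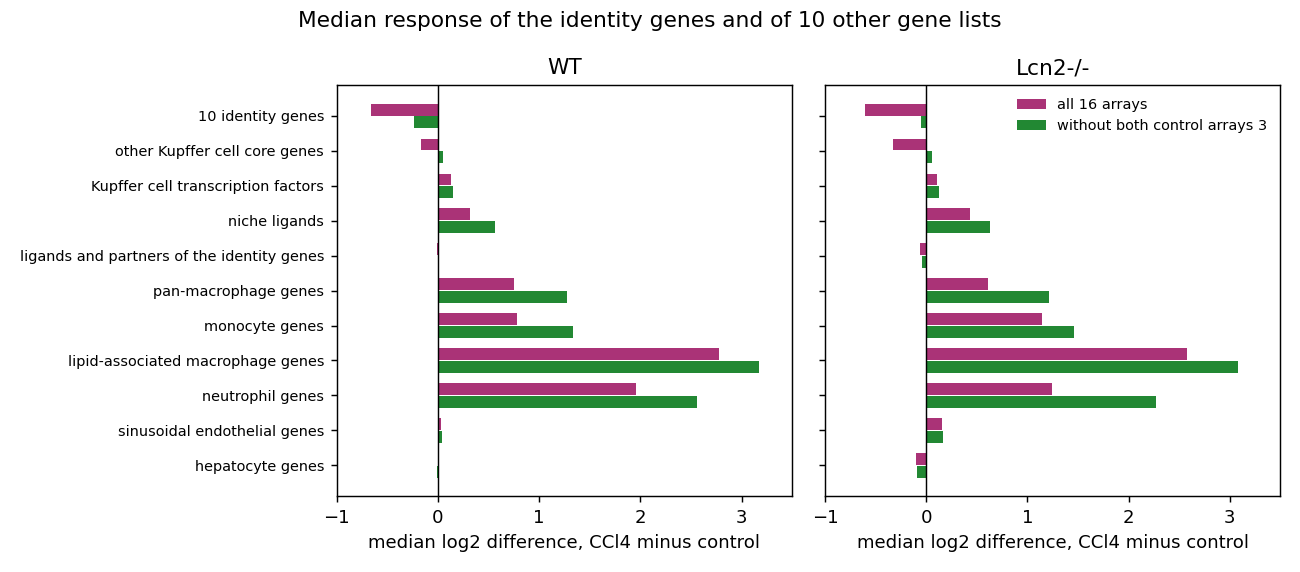
Median CCl4 minus control difference (log2) of the 10 identity genes and of 10 other gene lists, in WT and Lcn2-/- mice, over all 16 arrays and without both control arrays numbered 3. Of the lists drawn, which leave out the lists of 3 red cell and 2 peritoneal macrophage genes, the identity genes have the lowest bar in both genotypes over all arrays, at -0.66 and -0.60 (the red cell list, not drawn, lies lower in WT, at -0.82), and the lipid-associated macrophage genes the longest.

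Leaving out the identity genes, those whose profile over the 16 arrays was most like Clec4f were Fcna, with a root mean square difference of 0.26 after centring each gene, a noncoding probe of chromosome 4 (0.26), Ccl24 (0.29) and noncoding probes of chromosomes 2 and 17 (0.31 each). Ccl24 encodes eotaxin-2, a chemokine of eosinophils. Its group means were 11.49 in WT control, 11.76 in Lcn2-/- control, 10.18 in WT CCl4 and 10.74 in Lcn2-/- CCl4. Among the other identity genes the nearest to Clec4f was Vsig4 (0.29), nearer than Ccl24, then Folr2 (0.33), Timd4 (0.37), Cd5l (0.44), Spic (0.59), Csf1r (0.62), Cd163 (0.71) and Adgre1 (0.92). Marco was the farthest, at 1.68. Profiles were centred but not scaled, so a gene with a wide spread lies far from Clec4f whatever its shape. Marco ranged from 8.74 to 15.38 over the arrays. Distances and ranks therefore mix the size of the changes with their shape. In the order of nearness to Clec4f over the 24357 genes tested, Vsig4 ranked 3, Folr2 10, Timd4 44 and Cd5l 511. Spic ranked 8049, Csf1r 11024, Cd163 15591, Adgre1 20044 and Marco 23810. The probe of Cd163 was well above background on 6 of the 16 arrays, so its distance and rank do not measure its likeness to Clec4f. The chromosome 4 probe was dim too, at a group mean of 5.27 in WT CCl4.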

How the data were processed

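Mouse liver RNA was labelled with Cy3 and hybridised by the authors to 16 Agilent SurePrint G3 arrays, 1 array per sample. Groups and replicate numbers came from the sample titles. Per the file headers, each deposited file holds the intensity of 1 array's spots on a linear scale, background-subtracted and detrended by the scanner software but not normalized between arrays. A log2 table, also deposited, served as an alternative. Of its values, 99.9% lay within 0.05 of the quantile-normalized log2 of median signal less local background. Of 62976 spots per array, 3671 control spots and outlier spots were left out. Log2 processed signals were quantile normalized, spots of a probe averaged, probes kept if 3 or more arrays read them well above background (33014), and the probe with the highest mean taken per symbol (24357 genes, 49.8% of gene spots named through RefSeq). Processed signals at the 75th percentile ranged from 842 to 2067 and 0 gene spots were saturated. The number of arrays limits precision. Probe positions are mm9.

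All 4 groups entered 1 limma (3.58.1, R 4.3.3) model, with Benjamini-Hochberg adjustment, and the fit was tested on simulated data. Control arrays of equal number deviated together (r = 0.23, 0.37 and 0.55 across genes for replicates 1, 2 and 3), which was taken to pair them, although the labels state no shared litter or day and replicate 1 correlated better with an array of another number (r = 0.30). Of the CCl4 arrays, those numbered 2 correlated better with each other (r = 0.25) than with an array of another number (r = 0.16). Those numbered 1, 3 and 4 did not (r = 0.012, 0.026 and -0.22). The replicate block is an alternative. Others were background correction, scaling, probe filters, slide, tier, array weights and leaving out arrays. The 10 genes and the 12 gene lists (5 genes stand in 2 lists) were chosen with earlier results of these data known. Genes named are the identity genes, up to 4 examples per list (those called with the largest WT CCl4 difference, or the brightest) and the 5 most like Clec4f. Clec1b, Slc40a1, Vcam1, Nr1h3, Maf, Spi1, Csf1, Il34, Hp and Cx3cr1 were named for their role after their values were seen. Ly6c2, Tf, Alox15 and Hbb-b1 were among the listed genes not tested.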

Additional observations from a re-analysis of the deposited data

Results flagged for a closer look

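Group values of 4 or 5 arrays were screened for 1 array far from the others by Dixon's ratio, which chance exceeds in about 1 of 20 groups. Of 30 such group values over the 10 genes, 5 stood out. WT CCl4 replicate 2 was low for Vsig4, at 13.66. WT CCl4 replicate 1, the CCl4 array of slide 1, was low for Marco, at 8.74. Lcn2-/- CCl4 replicate 2 was high for Folr2, at 12.56. WT control replicate 3 was high for Csf1r, at 16.55, and for Spic, at 12.60. The Lcn2-/- control group has 3 arrays and was not screened.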

How the results depend on the processing

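With 3 genes called in the WT response, slide as a fixed block gave 0, where 1295 of all genes were called against 4064 in the main fit. Like slide 1 alone, that fit rests on 1 CCl4 array beside the controls. The differences there were -1.08 for Clec4f, -1.93 for Timd4 and -2.11 for Cd163, no smaller than over all arrays. Leaving out both control arrays numbered 3 gave 5, against 22.3% of all genes. With 1 gene called in the Lcn2-/- response, the count was 0 with slide as a fixed block and with only the 2 groups compared. It was also 0 with probes well above background on all arrays (Cd163 was not tested there). Over all genes these 3 fits called 426, 1751 and 2296, in that order, against 2958 in the main fit. The count ran from 0 to 1 when 1 array was left out. The other settings, the replicate block among them (3 and 1 genes called, with 0 in the other comparisons), kept these counts within 1.5 times, and both genotype comparisons and the interaction stayed at 0. Tier as a block gave 2 in WT, with Timd4 lost (adjusted p = 0.0703), where 3370 of all genes were called. For the WT response this fit is the same as leaving out WT CCl4 replicate 1, the 1 WT array of the lower tier. Probes above background on all arrays gave 2 of 9.

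Sign changes occurred only in genes not called. In WT, Csf1r was -0.12 with 75th percentile scaling, -0.19 with the mean of its probes and -0.14 with slide as a block or slide 1 alone, and Marco was 0.35 with array weights and 0.50 without both control arrays numbered 3. In Lcn2-/-, Adgre1 was -0.34 and Csf1r -0.23 with slide as a block, Csf1r -0.071 with 75th percentile scaling and -0.12 with the mean of its probes, Cd5l 0.033 with array weights, and Cd5l 0.26, Folr2 0.15 and Marco 0.093 without both control arrays numbered 3. With 1 array left out the ranges in WT were -0.067 to 0.37 for Csf1r and -1.56 to 0.50 for Marco. In Lcn2-/- they were -0.20 to 0.87 for Adgre1, -0.62 to 0.26 for Cd5l, -0.21 to 0.47 for Csf1r, -0.48 to 0.15 for Folr2 and -2.38 to 0.093 for Marco. The cause of these sign changes was not tested.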

Other observations

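Between genotypes, Cx3cr1, the fractalkine receptor of monocytes, was the only listed gene called in both comparisons. It was lower in Lcn2-/- than in WT, with a difference of -2.18 in controls (adjusted p = 0.000662) and -1.64 under CCl4 (adjusted p = 0.00338). Its group means were 11.28 in WT control, 9.10 in Lcn2-/- control, 11.88 in WT CCl4 and 10.24 in Lcn2-/- CCl4. Gpnmb was also called lower in Lcn2-/- controls, where 0 of its 3 arrays were well above background, but not without both control arrays numbered 3.

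The lists of peritoneal macrophage and red cell genes, which could mark admixture, held few tested genes. Of 2 peritoneal macrophage genes, Gata6 rose in WT by 0.58 (adjusted p = 0.0215) and in Lcn2-/- by 0.77, and Prg4 was at -0.08 in WT. Of 3 red cell genes, Alas2, the erythroid enzyme of haem synthesis, fell in WT by 0.82 (adjusted p = 0.0203, also the list's median), while Hba-a1 and Slc4a1 were not called, and in Lcn2-/- 0 of the 3 were called by limma, with 0 at an unadjusted p under 0.05. Their mean signal ranged from 14.00 to 15.13 in WT control and from 12.28 to 14.17 in WT CCl4. On the control arrays numbered 3 the red cell genes had a median excess of 0.26 in WT and -0.18 in Lcn2-/-.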
